A study of Mus musculus with 12 samples.

Results

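Interferon-stimulated antiviral genes were followed in sorted mouse CD8 T cells after checkpoint blockade. The group holds 38 genes, picked by name as antiviral effectors, sensors and regulators of the interferon response, without the immunity GTPases and the antigen presentation genes. All 38 were among the 48709 genes listed in each of the 3 deposited tables, and all 38 were among the 17833 genes with a test. RNA was measured in 12 libraries, 3 in each of 4 groups. The treated groups were anti-CTLA-4 alone, anti-PD-1 DANA alone, and Combo, which received anti-CTLA-4 together with anti-PD-1 DANA, and each was set against Isotype, the control antibody group.

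All mice were C57BL/6 wild type at postnatal day 91 and carried TRAMP-C2, a transplantable mouse prostate tumour line. The mice received antibody on days 3, 6 and 9 according to the labels of the samples, or on days 3, 6 and 8 according to the series description, and nodes were taken at day 28, counted from treatment in the labels of the samples and from tumour injection in the series description. Live CD8 T cells, positive for CD45, CD3, CD8 and Spas-1 and negative for Spas-2, were sorted from tumour-draining lymph nodes, Spas-1 being a tumour antigen of this line. The cells of the 5 mice of a group were pooled and the pool was split into 3, so a group is 1 pool of animals. The p-values measure the spread between splits of a pool, and the antibody and the pool cannot be told apart. In sorted bulk cells, fewer cells expressing a gene and less RNA per cell cannot be told apart either.

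Type I interferons bind a receptor made of Ifnar1 and Ifnar2. The receptor kinases Jak1 and Tyk2 activate the transcription complex ISGF3, which holds Stat2 and Irf9, and ISGF3 binds the interferon-stimulated response element (ISRE) in the promoters of antiviral genes. Interferon gamma acts mainly through a different promoter element, the gamma-activated site (GAS). The products sense viral nucleic acid, degrade or sequester viral RNA, block entry at membranes, or tag proteins with the ubiquitin-like protein ISG15.

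The promoters of the members were searched for the ISRE and for the GAS. RefSeq promoters of build GRCm38.p6, spanning 250 bases before to 50 bases after the transcript start, were matched for 28 of the 38 members. The ISRE core GAAANNGAAA, searched on both strands, was found in 13 of these 28 promoters (46.4%), and in 1079 of the 27025 genes with a promoter (3.99%). The GAS core TTCNNNGAA, which reads the same on both strands, was found in 7 of the 28, and in 2582 of the 27025 (9.55%). A match is a description of letters and not of a bound site. The 250 bases upstream of Isg15 and Ifit3 are shown because both genes are called below, and the capitals mark the ISRE core matches, written 5′ to 3′ in the direction of the gene.
Isg15, chr4:156200819-156201068 (minus strand): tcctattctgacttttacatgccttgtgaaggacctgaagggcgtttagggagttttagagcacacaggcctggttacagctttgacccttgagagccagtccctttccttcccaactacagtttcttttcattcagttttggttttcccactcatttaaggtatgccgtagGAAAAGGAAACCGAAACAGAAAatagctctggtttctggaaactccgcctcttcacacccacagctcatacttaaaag
Ifit3, chr19:34583279-34583528 (plus strand): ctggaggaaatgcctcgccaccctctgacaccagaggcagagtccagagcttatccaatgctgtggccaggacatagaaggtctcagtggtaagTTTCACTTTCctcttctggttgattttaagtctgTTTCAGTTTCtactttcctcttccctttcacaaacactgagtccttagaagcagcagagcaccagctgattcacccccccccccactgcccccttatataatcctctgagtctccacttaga
Isg15 carried 3 overlapping matches, the first beginning 78 bases before the start, and Ifit3 carried 2 separate matches on the opposite strand, so that they read as the reverse complement here. The following 30-base windows show the match in the other called members that had one, Ifih1 and Ifitm3, and in 4 members that were not called. Among the called members, Oasl1, Ifi44 and Cmpk2 have no window shown.
Ifih1, chr2:62646206-62646235 (minus strand): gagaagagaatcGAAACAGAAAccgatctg
Ifitm3, chr7:141010723-141010752 (minus strand): caaaattcagGAAAAGGAAActtctgagaa
Ifit1, chr19:34640775-34640804 (plus strand): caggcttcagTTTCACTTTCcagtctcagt
Oas1a, chr5:120907526-120907555 (minus strand): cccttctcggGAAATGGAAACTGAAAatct
Bst2, chr8:71537583-71537612 (minus strand): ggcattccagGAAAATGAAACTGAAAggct
Rsad2, chr12:26456553-26456582 (minus strand): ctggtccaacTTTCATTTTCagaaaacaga

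**Figure D1:**
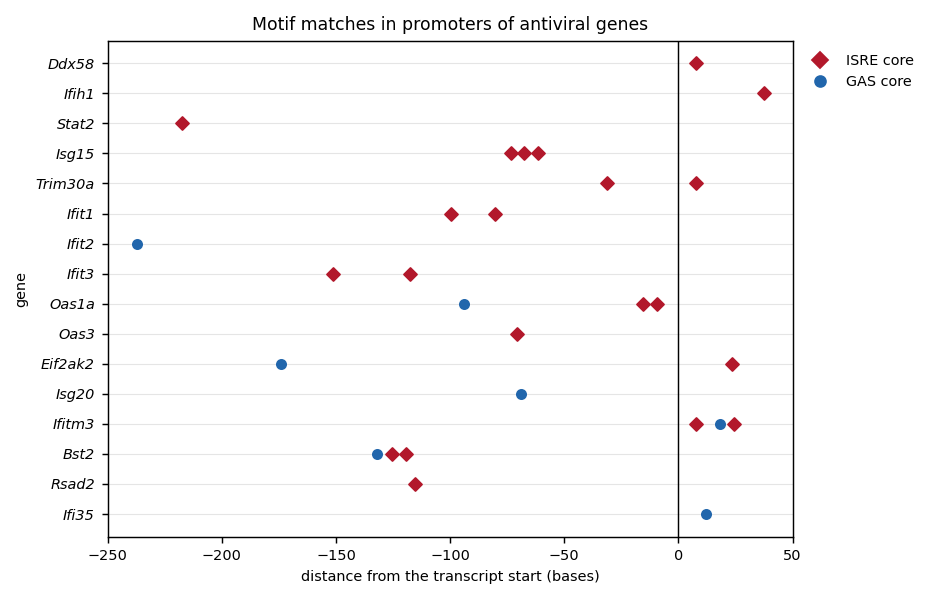
Positions of ISRE core matches (red diamonds) and GAS core matches (blue circles) in the promoters of members with at least 1 match, by distance in bases from the transcript start, marked by the vertical line. The 13 genes with an ISRE core hold it on either side of the start, and Isg15 holds 3 overlapping matches.

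Members also lie close together in the genome. Linking members at most 200 kb apart gave 6 clusters with 15 of the members, and the 38 members sat on 15 chromosomes. The Ifit genes Ifit2, Ifit3 and Ifit1 lay within chr19:34550694-34650009 in build GRCm38. The oligoadenylate synthetase genes Oas2, Oas3 and Oas1a lay within chr5:120730333-120907521 in the same build. The other clusters were Oasl2 with Oasl1, Mx1 with Mx2, Rsad2 with Cmpk2, and Parp14 with Dtx3l and Parp9. The Ifit, Oas and Mx genes are paralogues, and Parp9 overlaps Dtx3l on the opposite strand. How the authors' counting treated reads that match several genes, or strand, is not given in the sources used here, so a split of reads within these families was not tested.

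The deposited tables give, for each gene, the larger of the 2 group means in RPKM (reads scaled to exon length and library size), a log2 fold change of treated over Isotype, and a false discovery rate. Whole reads per library were recovered from the means where exon length and library size allowed a single solution, which gave 37 group means above 0 in 18 members. Recovered library sizes ran from 14729713 to 42556869 reads. Libraries are called A, B and C from smallest to largest within a group, since they could not be tied to the replicate numbers. The RPKM ratio exceeded the deposited fold change by a median log2 of 0.94 in the anti-CTLA-4 table, 0.82 in the anti-PD-1 DANA table and 0.11 in the Combo table, so means in RPKM and fold changes are on different scales. The ± after a fold change is a standard error implied by the deposited p-value.

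Few members passed the authors' test. A gene was called where the false discovery rate in the authors' deposited table was under 0.05. After anti-CTLA-4, 0 members were higher and 3 were lower. Of all tested genes 4.23% were called there, 2.74% higher and 1.49% lower. After anti-PD-1 DANA, 0 were higher and 1 was lower, where 3.75% of all tested genes were called, 2.43% higher and 1.32% lower. After Combo, 1 was higher and 4 were lower, where 7.53% of all tested genes were called, 3.94% higher and 3.59% lower. The called members made up 7.89%, 2.63% and 13.2% of the 38 after anti-CTLA-4, after anti-PD-1 DANA and after Combo. In all, 7 members were called in at least 1 comparison, 31 in none, and 8 of the 9 calls were lower than Isotype. The 3 comparisons share the Isotype libraries, so these counts are not independent of each other.

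In each comparison more members lay below 0 than above it, and few of them passed the test. The median of all tested genes was below 0 in each comparison too. In the authors' deposited tables, 27 of the 38 log2 fold changes were below 0 after each treatment. After anti-PD-1 DANA these included Rsad2, at -0.595 with no read in either group. The members' median was -1.33 after anti-CTLA-4, where the median of all tested genes was -0.62. It was -1.02 after anti-PD-1 DANA, where all tested genes had -0.45. It was -1.05 after Combo, where all tested genes had -0.42. Members below the median of all genes numbered 23, 26 and 26 in that order of treatments. Rsad2 was again among them after anti-PD-1 DANA. With fold changes rescaled to recovered library size, the medians of the members were -0.38, -0.20 and -0.95, and those of all tested genes 0.33, 0.36 and -0.31. A total of 22 members were below 0 in all 3 comparisons, and 4 were above 0 in all 3. The shares of all tested genes with these signs were not counted.

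**Figure D2:**
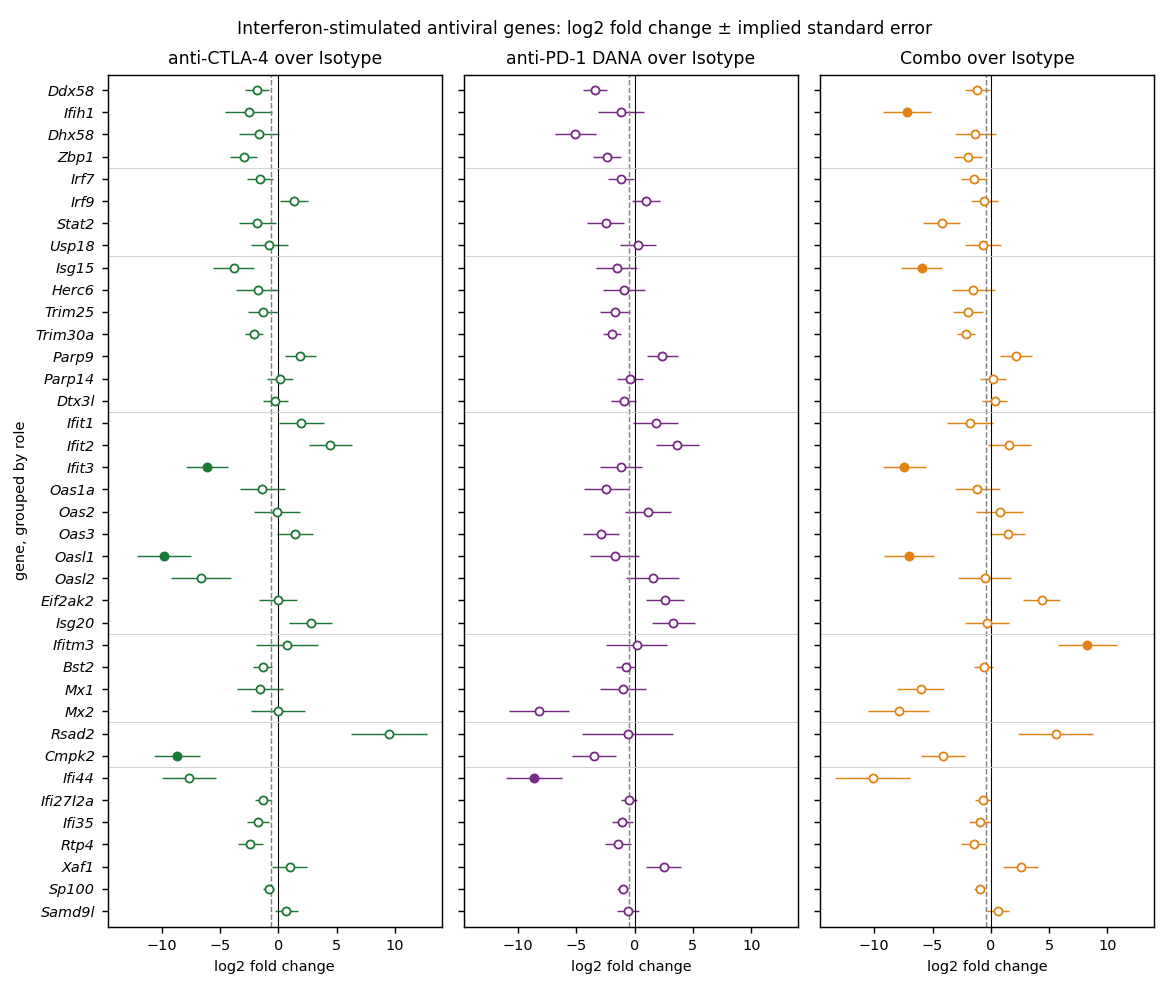
Deposited log2 fold change of treated over Isotype for the 38 members, with 1 panel per treatment and genes grouped by role. Bars are implied standard errors, filled points have a false discovery rate under 0.05, and the dashed line is the median of all tested genes. The 9 filled points are 8 below 0 and Ifitm3 after Combo above it.

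The sensors of viral nucleic acid were below 0 in all 3 comparisons, and their larger mean was the Isotype one each time. Ddx58 encodes RIG-I and Ifih1 encodes MDA5, which bind viral RNA, Dhx58 encodes LGP2, which regulates both, and Zbp1 binds Z-form nucleic acid. Ifih1 (chr2:62595798-62646255) fell after Combo, with a log2 fold change of -7.17 ± 2.06 and an adjusted p of 0.0253 in the authors' deposited table. Its Isotype mean was 1.41 RPKM, and the reads per library could not be told apart between 2 solutions. In the authors' deposited tables Ifih1 had -2.56 ± 1.99 after anti-CTLA-4 and -1.18 ± 1.99 after anti-PD-1 DANA, neither of which was called. Ddx58 averaged 18.3 RPKM and Zbp1 29.0 RPKM in Isotype. The value of Ddx58 closest to a call was -3.41 ± 1.04 after anti-PD-1 DANA, with a false discovery rate of 0.0627 in the authors' deposited table. Dhx58 had -5.08 ± 1.74 after anti-PD-1 DANA and was not called there (false discovery rate 0.119, the authors' deposited table). Zbp1 lay at -2.98 ± 1.17, -2.36 ± 1.17 and -1.97 ± 1.17 after anti-CTLA-4, after anti-PD-1 DANA and after Combo in the authors' deposited tables.

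Of the regulators of interferon signalling, Irf7, Irf9, Stat2 and Usp18, none was called. Irf7 is a transcription factor that amplifies interferon production, and it averaged 32.9 RPKM in Isotype. Its values in the authors' deposited tables were -1.61 ± 1.11 after anti-CTLA-4, -1.20 ± 1.11 after anti-PD-1 DANA and -1.44 ± 1.11 after Combo. Irf9, the DNA-binding part of ISGF3, had recovered levels of 11.9, 27.0 and 12.7 RPKM in the anti-CTLA-4 libraries A, B and C. It had 15.3, 15.1 and 5.83 RPKM in the anti-PD-1 DANA libraries, and 2.40, 0.530 and 6.95 RPKM in the Isotype libraries. In RPKM all 3 anti-CTLA-4 libraries lay above all 3 Isotype libraries, while the anti-PD-1 DANA group overlapped Isotype. RPKM ratios after anti-CTLA-4 exceed the deposited fold changes by a median log2 of 0.94. The share of all genes separated this way was not counted. The authors' deposited table gave Irf9 1.36 ± 1.19 after anti-CTLA-4, which was not called. Usp18, which removes ISG15 from proteins and restrains the receptor, was detected in every recovered library, with 5.84, 2.63 and 5.94 RPKM after anti-CTLA-4 and 7.29, 8.42 and 12.0 RPKM after anti-PD-1 DANA. Its Isotype mean was at most 4.21 RPKM. On their own scale the authors' deposited tables gave Usp18 -0.78 ± 1.57 after anti-CTLA-4, 0.29 ± 1.57 after anti-PD-1 DANA and -0.68 ± 1.57 after Combo. Stat2 averaged 10.5 RPKM in Isotype, and its lowest value was -4.22 ± 1.60 after Combo, with a false discovery rate of 0.163 in the authors' deposited table.

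Among the genes of ISG15 conjugation, ubiquitin ligation and ADP-ribosylation, Isg15 itself fell after Combo. Isg15 (chr4:156199424-156200818) encodes the ubiquitin-like modifier. Its Isotype libraries held 37.2, 30.1 and 7.32 RPKM, from 674, 557 and 182 reads, so all 3 expressed it. In the authors' deposited tables Isg15 had -5.93 ± 1.78 after Combo with an adjusted p of 0.0362, -3.84 ± 1.76 after anti-CTLA-4 with 0.422, and -1.52 ± 1.76 after anti-PD-1 DANA with 0.9998. Centring fold changes on the median of all tested genes, or of genes of like level, ended the Combo call. Trim30a, a ubiquitin ligase that dampens Toll-like receptor signalling, had among the most even values of the group. The authors' deposited tables gave -2.07 ± 0.79, -1.95 ± 0.79 and -2.14 ± 0.79 after anti-CTLA-4, after anti-PD-1 DANA and after Combo, with an Isotype mean of 37.6 RPKM and no call. Parp9, a partner of the ubiquitin ligase Dtx3l, lay above 0 in all 3, at 1.88 ± 1.34, 2.38 ± 1.34 and 2.15 ± 1.34 in the authors' deposited tables, again with no call. The recovered Parp9 level in Combo was 5.83, 6.96 and 1.62 RPKM.

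The 10 RNA-targeting effectors were divided, with 4, 6 and 4 members above 0 after anti-CTLA-4, after anti-PD-1 DANA and after Combo. Ifit proteins bind foreign RNA at its 5′ end or act beside those that do. Ifit3 (chr19:34583531-34588731), a partner of Ifit1, had 0.0717, 38.4 and 7.65 RPKM in Isotype libraries A, B and C, from 3, 1643 and 439 reads. Library B supplied 83.3% of the Isotype mean of 15.4 RPKM, and the mean without it was 3.86 RPKM. Ifit3 fell after Combo (-7.41 ± 1.83, adjusted p = 0.00629, the authors' deposited table) and after anti-CTLA-4 (-6.13 ± 1.81, adjusted p = 0.0479, the authors' deposited table). It was not called after anti-PD-1 DANA, with -1.19 ± 1.80 in the authors' deposited table. The anti-CTLA-4 call ended under every other scaling tried, with -5.18 by library size.

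The neighbours of Ifit3 were not called in any comparison. Ifit2 had 6.76, 5.60 and 1.54 RPKM after anti-CTLA-4, 2.28, 0.0951 and 4.70 RPKM after anti-PD-1 DANA, and 0.0104, 0.0159 and 0.987 RPKM after Combo, with an Isotype mean of at most 0.338 RPKM. The authors' deposited table gave Ifit2 4.46 ± 1.84 after anti-CTLA-4, with a false discovery rate of 0.279. Its Isotype libraries were not recovered, so overlap of single libraries with Isotype could not be judged. Ifit1 had 9.43, 1.36 and 0.560 RPKM after anti-CTLA-4, 5.13, 0.0281 and 3.76 RPKM after anti-PD-1 DANA, and 1.26, 0.184 and 0.0115 RPKM in Isotype. The groups overlapped, and Ifit1 was called in no comparison.

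The oligoadenylate synthetases make the second messenger that activates RNase L, and the Oasl proteins are their relatives, of which mouse Oasl1 is known to limit translation of Irf7. Oasl1 (chr5:114923240-114937915) had 16.4, 0.0469 and 0.0117 RPKM in Isotype libraries A, B and C, from 1027, 3 and 1 reads. Library A thus held 99.6% of the Isotype level, and the mean without it was 0.0293 RPKM. Oasl1 fell after anti-CTLA-4 (-9.80 ± 2.35, adjusted p = 0.00774, the authors' deposited table) and after Combo (-7.03 ± 2.14, adjusted p = 0.0414, the authors' deposited table). After anti-PD-1 DANA it had -1.71 ± 2.10 in the authors' deposited table. The Combo call of Oasl1 ended with either way of centring. Oas1a had the same shape in a different library, with 0.111, 34.1 and 0.194 RPKM in Isotype, and was not called. Oas3 had 21.5, 6.73 and 0.744 RPKM after anti-CTLA-4 and 5.85, 9.26 and 0.674 RPKM after Combo, against 0.0479, 5.67 and 0.309 RPKM in Isotype, with overlap and no call. Eif2ak2, the double-stranded RNA kinase PKR, reached 3.34, 15.7 and 0.0414 RPKM after Combo and 0.694, 2.69 and 6.29 RPKM after anti-PD-1 DANA. It held 0.0929, 0.0615 and 1.39 RPKM after anti-CTLA-4, and its Isotype mean was at most 0.516 RPKM. Its largest value was 4.35 ± 1.62 after Combo, with a false discovery rate of 0.153 in the authors' deposited table. Isg20, an RNA exonuclease, had 14.1, 6.56 and 0.0182 RPKM after anti-CTLA-4 and 8.81, 0.321 and 17.5 RPKM after anti-PD-1 DANA, against 0.0897, 1.58 and 0.0164 RPKM in Isotype, and was not called.

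**Figure D3:**
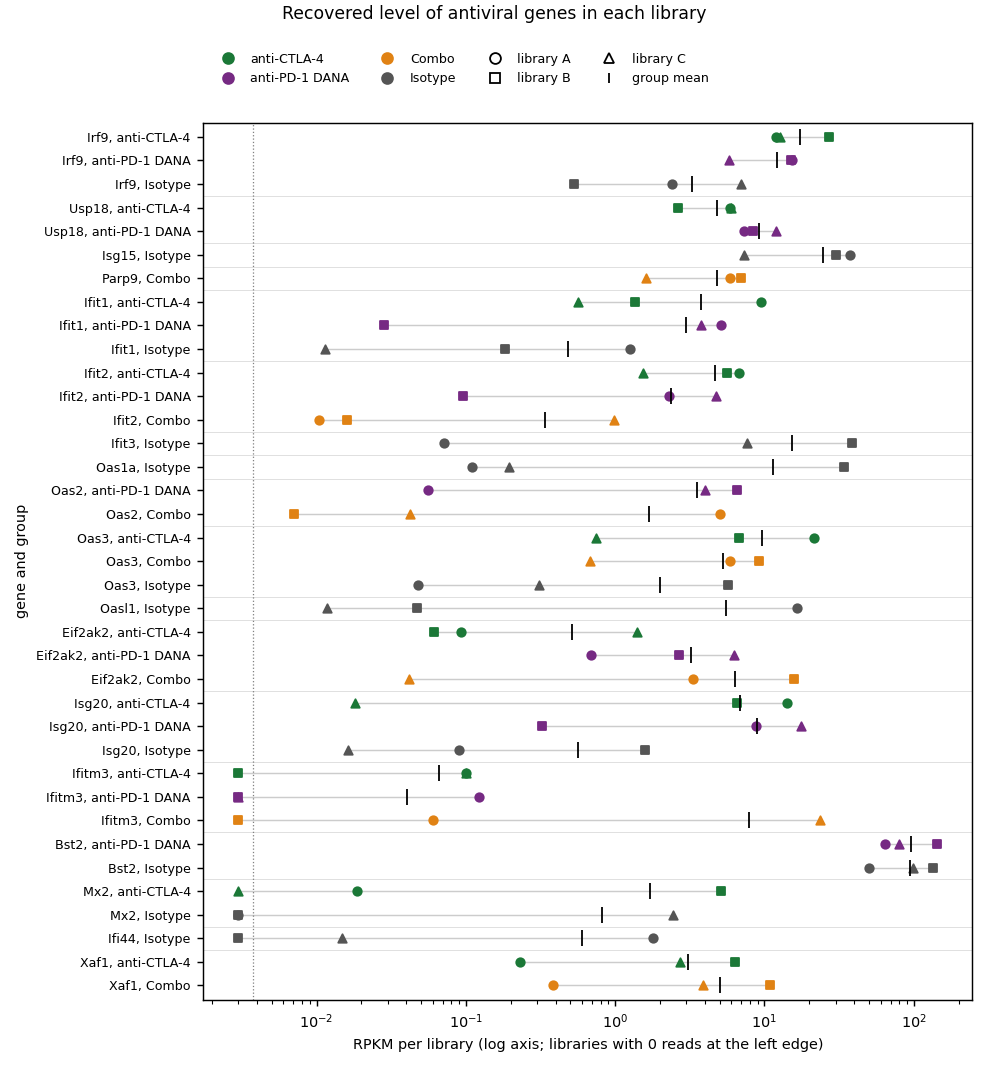
Recovered RPKM per library on a log axis for each member and group with a solution; colours mark the groups, shapes mark libraries A, B and C, black ticks mark the group mean, and libraries with 0 reads sit left of the dotted line. Several low and middle members have a single high library, such as Oasl1 in Isotype library A and Ifitm3 in Combo library C, while Bst2 is spread evenly.

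The membrane and dynamin-like restriction factors held the single call above Isotype. Ifitm3 (chr7:141009586-141010770) blocks virus entry at endosomes. It had 0.0600, 0 and 23.6 RPKM in Combo libraries A, B and C, from 1, 0 and 680 reads. Anti-CTLA-4 libraries had 1, 0 and 2 reads of it, anti-PD-1 DANA libraries had 2, 0 and 0, and its Isotype mean was at most 0.0406 RPKM. Ifitm3 rose after Combo in the authors' deposited table (8.28 ± 2.49, adjusted p = 0.0375), with 99.8% of the Combo level in library C. Without that library the Combo mean was 0.0300 RPKM. Bst2, or tetherin, which holds budding virus at the cell surface, was evenly expressed, with 64.2, 144 and 79.6 RPKM after anti-PD-1 DANA and 49.9, 135 and 99.2 RPKM in Isotype. The ranges of these groups overlapped, and the authors' deposited tables gave -1.33 ± 0.82, -0.77 ± 0.82 and -0.63 ± 0.82 after anti-CTLA-4, after anti-PD-1 DANA and after Combo. Mx2, a dynamin-like GTPase, had 0.0188, 5.10 and 0 RPKM after anti-CTLA-4, against 0, 0 and 2.43 RPKM in Isotype. It was not called in any comparison, with false discovery rates of 0.0735 after anti-PD-1 DANA and 0.0741 after Combo in the authors' deposited tables.

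The nucleotide enzymes Cmpk2 and Rsad2 are neighbours on chromosome 12. Cmpk2 (chr12:26469204-26479835), a mitochondrial nucleotide kinase, averaged 9.35 RPKM in Isotype and fell after anti-CTLA-4, with -8.73 ± 1.97 and an adjusted p of 0.00432 in the authors' deposited table. It was not called after anti-PD-1 DANA (-3.51 ± 1.89) or Combo (-4.11 ± 1.90) in the authors' deposited tables. Its reads per library were not recovered. Rsad2, which encodes viperin and makes a chain-terminating nucleotide, had no read in the Isotype or anti-PD-1 DANA libraries. Its mean was 1.50 RPKM after anti-CTLA-4 and 0.050 RPKM after Combo, with false discovery rates of 0.114 and 0.867 in the authors' deposited tables, and no fold is given against a group at 0. Rsad2 was called higher after anti-CTLA-4 when p-values were adjusted over tested genes only, when genes with a larger mean under 1 RPKM were left out, and under library size scaling.

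Among the remaining members, Ifi44 (chr3:151730922-151749960), an interferon-induced cytoplasmic protein, fell after anti-PD-1 DANA. Its Isotype libraries had 1.79, 0 and 0.0149 RPKM, from 263, 0 and 3 reads, so 99.2% of the level was in library A and the mean without it was 0.00745 RPKM. The authors' deposited tables gave Ifi44 -8.65 ± 2.42 after anti-PD-1 DANA with an adjusted p of 0.0324, -7.68 ± 2.30 after anti-CTLA-4 with 0.0524, and -10.14 ± 3.20 after Combo with 0.0536. Ifi27l2a, which encodes a small interferon-induced protein, was the most abundant member in Isotype, at 282 RPKM. It had -1.33 ± 0.68 after anti-CTLA-4, -0.48 ± 0.68 after anti-PD-1 DANA and -0.71 ± 0.68 after Combo in the authors' deposited tables, with no call. Ifi35, Rtp4 and Sp100 had Isotype means of 46.9, 37.5 and 31.6 RPKM and were below 0 in all 3 comparisons, with no call. In the authors' deposited tables Rtp4 had -2.40 ± 1.09, -1.40 ± 1.09 and -1.49 ± 1.09, and Ifi35 had -1.77 ± 0.94, -1.04 ± 0.94 and -0.91 ± 0.94, after anti-CTLA-4, after anti-PD-1 DANA and after Combo. Sp100, a nuclear body protein, had the smallest errors of the group, with -0.82 ± 0.48, -1.04 ± 0.48 and -0.95 ± 0.48 after anti-CTLA-4, after anti-PD-1 DANA and after Combo in the authors' deposited tables. Xaf1, a pro-apoptotic factor, lay above 0 in all 3, and reached 0.382, 10.9 and 3.86 RPKM after Combo and 0.232, 6.32 and 2.72 RPKM after anti-CTLA-4, without a call.

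The plot of fold change against level sets the members among all tested genes. The 6 members with an implied standard error under 1, namely Ifi27l2a, Ifi35, Bst2, Trim30a, Samd9l and Sp100, ran from -2.07 to 0.69 after anti-CTLA-4, from -1.95 to -0.48 after anti-PD-1 DANA and from -2.14 to 0.61 after Combo in the authors' deposited tables. Over all 38 members the implied error ran from 0.48 to 3.90. Of the 11 members with a recovered Isotype mean of 0.3 RPKM or more, 8 (72.7%) had 80% or more of it in a single library, 3 in A, 4 in B and 1 in C. Among all solved genes at that level in Isotype the share was 69.7%. In anti-CTLA-4 it was 3 of 9 members (33.3%) against 43.5% of genes, in anti-PD-1 DANA 0 of 8 against 44.5%, and in Combo 4 of 7 (57.1%) against 57.8%.

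**Figure D4:**
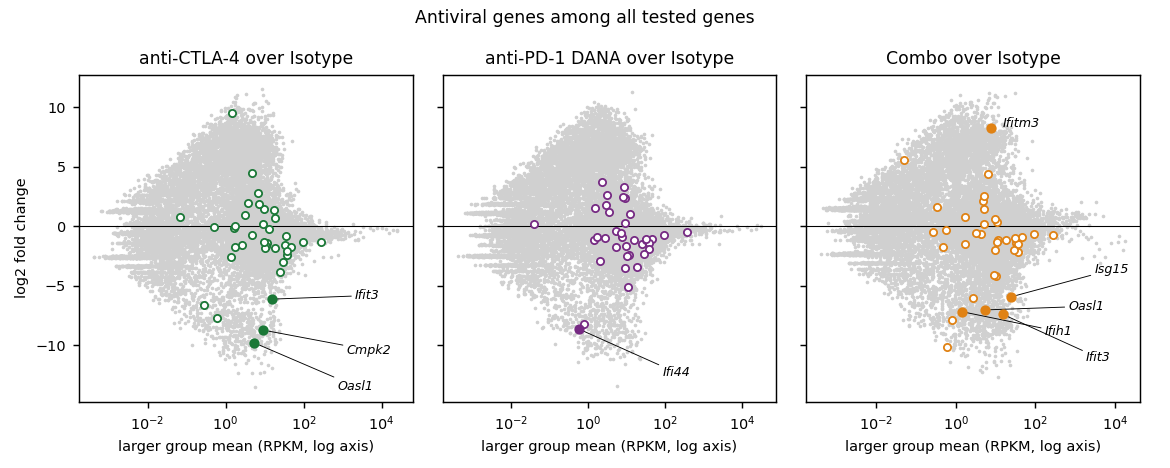
Deposited log2 fold change of treated over Isotype against the larger group mean in RPKM on a log axis, with all tested genes in grey, members as open circles and called members filled and named; genes with a mean of 0 are not drawn. The called members have means between 0.602 and 24.9 RPKM, and Ifi27l2a, at 282 RPKM in Isotype, lies at -1.33, -0.48 and -0.71.

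Differences between the treatments were tested from pairs of deposited fold changes, with Benjamini-Hochberg adjustment over all listed genes. No member passed: 0 of 38 for Combo minus anti-CTLA-4, 0 for Combo minus anti-PD-1 DANA and 0 for anti-CTLA-4 minus anti-PD-1 DANA, where 0.948%, 0.46% and 0.0% of all tested genes passed. By this test 6, 9 and 8 members had an unadjusted p under 0.05. The share of all tested genes under that limit was not counted, so these counts are no result about the members. The member nearest to a call was Ifit3, at -6.21 ± 1.82 for Combo minus anti-PD-1 DANA, with an adjusted p of 0.130. A call after Combo with none after anti-PD-1 DANA is therefore not shown to be a difference between them.

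The upstream pathway was a list of 28 genes from interferon production to signalling, of which 24 were tested. It had 1 gene higher after anti-CTLA-4, 0 called after anti-PD-1 DANA, and 0 higher and 1 lower after Combo. The shares of all tested genes called were 4.23%, 3.75% and 7.53% in that order. Irf1, a transcription factor induced by interferon gamma, averaged 71.8 RPKM in Isotype and fell after Combo, with -2.22 ± 0.55 and an adjusted p of 0.00664 in the authors' deposited table. Ticam1, the Toll-like receptor adaptor TRIF, rose after anti-CTLA-4, with 6.83 ± 1.97 and an adjusted p of 0.0403 in the authors' deposited table, and had 0.635, 10.8 and 3.85 RPKM there. The receptor genes Ifnar1 and Ifnar2 and the kinases Jak1 and Tyk2 were not called. In the authors' deposited tables Ifnar1 had -0.32 ± 1.37, -1.07 ± 1.37 and -1.43 ± 1.37 after anti-CTLA-4, after anti-PD-1 DANA and after Combo, and Jak1 had -0.73 ± 0.51, -0.88 ± 0.51 and -0.43 ± 0.51. Ifnar2 had log2 fold changes of 0.0138, 0.0015 and 0.997 there, and Tyk2 had 1.35, 2.83 and -0.81, in the same order. The interferon genes Ifnb1, Ifna1, Ifna2 and Ifna4 were listed at 0 in every group.

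A second list held 54 other interferon-stimulated genes, of which 50 were tested. After anti-CTLA-4, 1 was higher and 2 were lower, after anti-PD-1 DANA 2 were higher and 0 lower, and after Combo 1 was higher and 2 were lower. Of all tested genes 4.23%, 3.75% and 7.53% were called in that order. Ifitm1, a membrane relative of Ifitm3, rose after Combo (7.25 ± 1.50, adjusted p = 0.000763, the authors' deposited table) and after anti-PD-1 DANA (5.79 ± 1.50, adjusted p = 0.0168, the authors' deposited table). It had 51.6, 13.4 and 33.8 RPKM in the Combo libraries and 6.90, 42.6 and 9.19 RPKM in the anti-PD-1 DANA libraries, with an Isotype mean of at most 5.57 RPKM, so unlike Ifitm3 it was detected in all 3 Combo libraries. Tor3a rose after anti-PD-1 DANA (8.09 ± 1.90) and after anti-CTLA-4 (6.73 ± 1.90) in the authors' deposited tables. Its anti-CTLA-4 libraries had 8.67, 0.0404 and 0.721 RPKM, the mean without library A was 0.381 RPKM, and the anti-CTLA-4 call ended when fold changes were centred on genes of like level. The genes that fell were Oas1b (-5.71 ± 1.61) and Slfn9 (-10.39 ± 2.44) after anti-CTLA-4, and Slfn9 (-7.88 ± 2.18) and Phf11d (-7.02 ± 1.96) after Combo, in the authors' deposited tables. The Oas1b call ended under each of the 3 other scalings.

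Markers of the sorted cells and of other cells were read beside these results. The 10 CD8 T cell markers had larger means from 81.8 to 1185 RPKM, and none was called. Of 13 B cell markers, 3 were higher after anti-CTLA-4 (Ms4a1, Spib and Fcer2a), and 1 was higher (Fcer2a) and 1 lower (Cd22) after Combo. Of 11 macrophage and monocyte markers analysed, 4 were lower after anti-CTLA-4 (C1qa, Mpeg1, Fcgr3 and Timd4). After anti-PD-1 DANA 1 was higher (Csf1r) and 1 lower (Fcgr3), and after Combo 3 were lower (Lyz2, Fcgr3 and Timd4). Of the 10 macrophage markers tested, 5 were above 0 and 5 below it after anti-CTLA-4. After anti-PD-1 DANA and after Combo, 4 were above and 6 below each time. The 6 after anti-PD-1 DANA included Marco, with no read in either group. C1qc had 5.59, 4.61 and 7.04 RPKM in the anti-CTLA-4 libraries and was not called. Of all tested genes 4.23%, 3.75% and 7.53% were called in the 3 comparisons. C1qa and Timd4 had 34.0 and 22.8 RPKM in Isotype library B, where Ifit3 and Oas1a were high, and Fcgr3 had 11.2 RPKM in Isotype library A, where Oasl1 and Ifi44 were high. C1qa, Timd4 and Fcgr3 were each under 0.1 RPKM in the other Isotype libraries. The rest of the macrophage list differed from them. Cd68 had 0, 0.0325 and 0.0726 RPKM in the Isotype libraries, and Adgre1 and Marco were at 0. C1qb, C1qc and Csf1r averaged at most 0.0144, 0.0338 and 0.00569 RPKM in Isotype, Mpeg1 2.48 RPKM and Lyz2 at most 49.1 RPKM. Of all solved genes at 0.3 RPKM or more in Isotype, 69.7% had 80% or more of it in a single library. Of 9 plasmacytoid dendritic cell markers, 0 were called after either single antibody, and 1 was higher (Runx2) and 1 lower (Ccr9) after Combo. Siglech, Ccr9 and Pacsin1 averaged 24.97, 21.0 and 7.10 RPKM in Isotype, while Klk1, Cox6a2 and Smim5 were at 0. Bcl11a, Runx2 and Tcf4 averaged at most 0.0463, 0.139 and 0.0460 RPKM there. Deposited log2 fold changes of Siglech were -4.61, -5.54 and -2.44 after anti-CTLA-4, after anti-PD-1 DANA and after Combo, without a call. Of the 7 plasmacytoid markers tested, 4, 3 and 4 were below 0 in that order. Cox6a2 was counted below 0 after anti-CTLA-4 and after Combo, with no read in either group each time. The larger means summed to between 255 and 468 RPKM over the B cell list, 53.9 to 56.2 RPKM over the plasmacytoid list and 74.5 to 135 RPKM over the macrophage list, and 3339 to 4122 RPKM over the CD8 T cell list. The part of other cells in the members' results was not tested.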

How the data were processed

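RNA was amplified from 0.25 ng with 21 cycles by a Smart-seq2-type protocol, given Nextera adapters and sequenced on an Illumina HiSeq instrument, per the labels' protocols. Alignment and quantification used CLC Genomics Workbench, per the labels' protocols, and the GRCm38.p5 build, per the submitters' processing notes. The program's version, its annotation and its statistical model: not given in the sources used here. Each of the 3 deposited tables sets 1 treatment against Isotype. The larger group mean in the authors' tables is in RPKM, read from the values. The authors' tables also hold log2 fold changes and signed fold changes, in which a positive sign means higher in the treated group. The deposited p-values were adjusted over all 48709 listed genes, by false discovery rate (Benjamini-Hochberg) and by Bonferroni.

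Since the files give comparisons rather than values of single libraries, count models could not be fitted and the authors' test was used, with a false discovery rate under 0.05 as a call. Dividing the size of the log2 fold change by the normal quantile of its p-value gave an implied standard error, on the assumption of a Wald test. Differences between treatments took the error from equal variances where both errors were within 5% of each other and otherwise from their sum of squares. Reads per library were recovered as whole numbers whose RPKM, given GENCODE exon length and recovered library sizes, average to the deposited mean at its 10 decimals. A solution was kept where at most 0.05 were due by chance. Between 57.8% and 69.8% of means tried were solved, and 0.0471% to 0.527% when 1 base was added to the exon length. Steps were tested on simulated data. Promoters came from RefSeq (GRCm38.p6). Depth ran from 14729713 to 42556869 reads; reads without molecular identifiers are not independent molecules. Where the treated mean is the smaller, the tables do not give it, so a treated group at 0 cannot be told from a low one and a fitted fold is no bound.

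Members named are those called in a comparison, those with a larger mean of 20 RPKM or more, and the 3 with the largest absolute fold change per comparison; Ddx58, Irf9, Usp18, Stat2, Ifit1, Ifit2, Oas1a, Oas3, Isg20, Eif2ak2, Parp9, Samd9l and Xaf1 were added after their values were seen. The values of 1 gene of the upstream pathway list are not reported here. The members and lists were chosen with earlier results of these data known. Alternatives were other adjustments, a filter on level, other scalings, and leaving out members resting on a single library. Python 3.11.15, numpy 2.4.6, pandas 2.3.3, scipy 1.17.1 and matplotlib 3.10.9 were used.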

Additional observations from a re-analysis of the deposited data

How the results depend on the processing

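The counts of called members moved with the adjustment and the filter. After anti-CTLA-4 the count of 3 became 5 with Benjamini-Hochberg over tested genes only, 5 with larger means of 1 RPKM or more, and 0 with Bonferroni; Rsad2 was called higher in both counts of 5 and, in place of Ifit3, in the count of 3 by library size. After anti-PD-1 DANA the count of 1 became 4 over tested genes only, 3 at a false discovery rate under 0.1, 2 with the filter, 2 with fold changes centred in 20 bins of level, and 0 with Bonferroni. After Combo the count of 5 became 8 over tested genes only, 8 at a false discovery rate under 0.1, 9 with the filter, 3 with centring on all tested genes, and 0 with Bonferroni. Leaving out members with 80% or more of the larger mean in a single library, chosen after seeing the data, left 1 member after anti-CTLA-4 (Cmpk2), 0 after anti-PD-1 DANA and 2 after Combo (Isg15 and Ifih1); reads of Cmpk2 and Ifih1 were not resolved, so they could not be judged by it. The cause of the other shifts was not tested.

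Over all genes the calls after anti-CTLA-4, after anti-PD-1 DANA and after Combo numbered 754, 669 and 1343 as deposited, 1616, 1596 and 2238 over tested genes only, 1279, 1241 and 1898 at a false discovery rate under 0.1, 2055, 1989 and 2314 with the filter, and 27, 34 and 74 with Bonferroni. Scaling moved the balance: 488 of 754 calls after anti-CTLA-4 were higher as deposited and 1188 of 1367 by library size, 434 of 669 and 1051 of 1217 after anti-PD-1 DANA, and 703 of 1343 and 755 of 1359 after Combo. Centred on all tested genes, 904 of 1095, 725 of 909 and 952 of 1439 were higher, and centred in bins, 580 of 1139, 525 of 1093 and 707 of 1366. The members' medians stayed below 0 under each scaling, alternatives also chosen after seeing the data. Of the values of single named genes, 468 kept their side of the threshold, 34 lost a call, 31 gained one and 0 reversed. A reversal was counted only for a called gene. Other adjustments, thresholds and filters leave the fold change as it is, so only the scalings could reverse one. No member passed a difference between treatments with the upper bound of the error either.

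No paired analysis was possible because the tables list no libraries, and the reads recovered for part of the genes could not be tied to replicate numbers. Leaving out each replicate, the replicate block, DESeq2 and other count normalizations were not run, since such fits need the reads of all genes in every library. Splits of a single pool limit every p-value to technical spread.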
